A study of Mus musculus with 12 samples.

Results

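The 10 genes described here encode ligands, receptors, SMADs and an antagonist of the transforming growth factor beta (TGF-beta) and activin pathway: Tgfb1, Tgfb2, Tgfb3, Tgfbr1, Tgfbr2, Tgfbr3, Smad2, Smad3, Inhba and Fst. They were taken by symbol, with no threshold on their values but with earlier results of these data known, out of 18193 genes with a probe set of their own on the arrays. The 10 symbols had 24 probe sets, and each gene is given by whichever of its probe sets was brightest on average. All 10 were among the 14645 genes that passed a filter on low signal and were tested. The cells were luminal and basal epithelial cells sorted from the prostates of adult male C57BL/6 mice. At the age of 8 weeks mice were castrated by removal of the testes or kept whole, and 4 weeks later both kinds of animal were killed. Cells that lacked lineage markers and carried EpCAM were taken as luminal where CD49f was low and as basal where it was high. Luminal and basal cells of intact and of castrated mice made 4 groups, with 3 biological replicates and 1 array for each replicate. How many animals made up a replicate is not given in the sources used here.

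TGF-beta ligands are secreted in a latent complex, and once released they bring the type II receptor together with the type I receptor, which phosphorylates SMAD2 and SMAD3. Activin, a dimer of subunits that Inhba and its relatives encode, signals through receptors of its own to the same SMADs, and follistatin, the product of Fst, binds activin and keeps it from its receptors. In the prostate, TGF-beta is known as a restraint on epithelial growth, and removing androgen by castration causes the gland to regress. The design therefore asks how the transcripts of this pathway stand in each epithelial layer and how each layer differs after androgen loss.

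Values are MAS5 signals, a linear measure of brightness that the authors scaled to a common level on each array (the mean after trimming 2% from each end was 500 on all 12 arrays). Array medians were 57.7 to 99.95. The summed signal of 9 basal markers was 101505 to 178293 on the basal arrays and 11315 to 14466 on the luminal arrays, and that of 8 luminal markers was 133231 to 223939 on the luminal arrays and 77083 to 113981 on the basal arrays. All 9 basal markers were called lower in luminal cells, and 5 of 8 luminal markers were called higher. In castrated mice Krt18, a luminal keratin, did not differ detectably between the layers, at 28227 to 40003 in luminal and 33233 to 47342 in basal cells (-0.20, adjusted p = 0.416). The summed signal of 12 fibroblast markers differed between the groups, at 10226 to 18211 in intact luminal, 1045 to 1360 in castrated luminal, 41586 to 58066 in intact basal and 24772 to 31227 in castrated basal samples. Col1a1, Pdgfra, Sparc and Thy1 were below the 40th percentile in all 3 castrated luminal samples. Summed signals of leukocyte markers were 308 to 536 in castrated luminal samples and 637 to 3001 in the other groups. Intact luminal replicate 3 stood apart within its group, with a fibroblast sum of 18211 against 10226 and 10297, a smooth muscle sum of 5315 against 852 and 944, an endothelial sum of 1450 against 484 and 595 and a leukocyte sum of 1540 against 637 and 716. It also had the lowest quality weight of the 12 arrays (0.363), so values that rest on it are given without it as well. The part of these other cell types in the results below was not tested, except where a value is given. The arrays measured pooled sorted cells, so fewer cells of a type and less RNA per cell cannot be told apart. With 3 arrays a group, their number limits the precision of every value below.

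Differences are on the scale of log2(signal + 16), with their standard error (SE) from one limma model of the 4 groups, and a gene was called at an adjusted p under 0.05 over all 14645 genes. The constant of 16 understates the change of dim genes. In intact mice, all 10 genes had a lower mean in luminal than in basal cells, and 5 of them (Tgfb1, Tgfbr1, Tgfbr3, Inhba and Fst) were called lower, where 8.45% of all tested genes were called lower and 19.5% were called in either direction. The differences of Smad3 (-0.04) and Tgfb2 (-0.09) were close to 0 and turned sign when some arrays were left out. The 10 genes had a median difference of -0.94, against 0.07 for all genes. In castrated mice, 5 genes were called between the layers, where 18.4% of all genes were: Tgfb1, Tgfbr3, Inhba and Fst were lower in luminal cells and Smad2 was higher. After castration Smad2 and Smad3 rose in luminal cells, 2 of 10 where 5.86% of all genes were called and 2.9% were called higher, and the median of the 10 was 0.85 against -0.09 for all genes. In basal cells Fst rose and Tgfb3 fell, 2 of 10 where 2.62% of all genes were called. The castration effect itself differed between the layers for Fst, 1 of 10 where 1.15% of all genes were called. The comparisons between layers use the same arrays as those of castration, so they are not independent of one another.

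**Figure D1:**
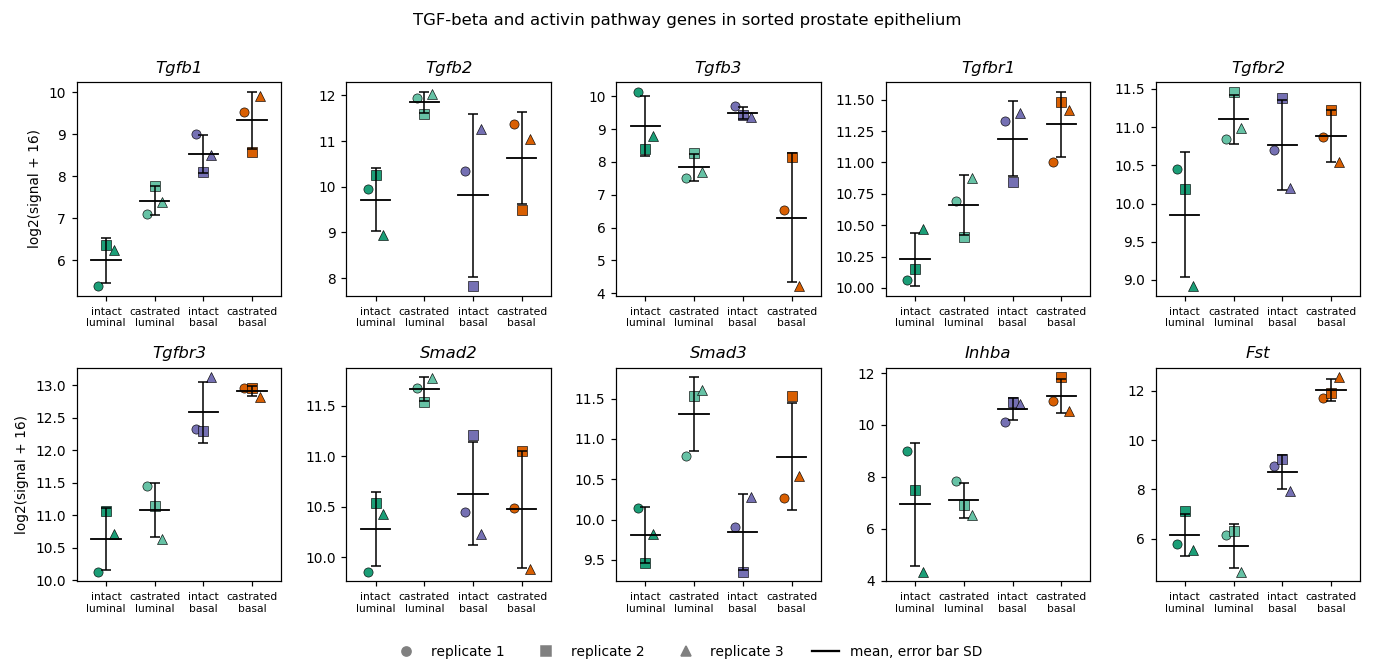
Signal of the 10 genes on each of the 12 arrays as log2(signal + 16), with 1 point for each replicate, a line at the group mean and a bar of 1 SD. Fst stands highest in castrated basal cells, at signals of 3311 to 6000, and Inhba is high on all 6 basal arrays.

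Tgfb1 encodes TGF-beta1, the ligand best known as a brake on epithelial growth. Its signal was 25.8, 67.1 and 59.7 in intact luminal, 122, 204 and 152 in castrated luminal, 499, 259 and 347 in intact basal and 721, 368 and 943 in castrated basal cells (replicates 1 to 3). The groups rank in that order, the luminal arrays all lie below the basal arrays, and the 2 basal groups overlap. Tgfb1 was 5.80-fold lower in luminal than in basal cells of intact mice (log2 difference -2.54 ± 0.55 SE, adjusted p = 0.00321) and 3.77-fold lower in castrated mice (-1.91, adjusted p = 0.0205). The second of these calls was lost when castrated basal replicate 1 or 3 or castrated luminal replicate 1 or 3 was left out (adjusted p 0.061 to 0.0935). The 3 castrated luminal values all exceeded the 3 intact luminal values, but the difference of 1.42 ± 0.55 did not pass (adjusted p = 0.149). It did so when arrays were centred on their median (1.80, adjusted p = 0.0479) or weighted by quality (adjusted p = 0.0402). The other Tgfb1 probe set read -0.64 in luminal cells after castration (adjusted p = 0.732), opposite in sign. Its signals there overlapped, at 5.51, 108 and 272 in intact and 44.6, 25.8 and 64.9 in castrated luminal cells. Intact luminal replicate 3 was the highest of these, and this probe set was not fitted without that array, so its sign is uncertain. Between the layers this probe set was also lower in luminal cells but passed in neither case (-1.82, adjusted p = 0.139, in intact and -1.66, adjusted p = 0.19, in castrated mice). Intact luminal signals of the chosen probe set were dim, with 1 of 3 arrays under the 40th percentile, so the fold in intact mice depends on the constant added.

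Tgfb2 encodes TGF-beta2, the ligand that depends most on the coreceptor betaglycan. Its signal was 980.0, 1210 and 474 in intact luminal, 3928, 3072 and 4136 in castrated luminal, 1284, 210.4 and 2435 in intact basal and 2622, 701 and 2089 in castrated basal cells. All 3 castrated luminal arrays lay above all 9 other arrays, and the basal groups overlapped each other and the intact luminal group. The luminal difference after castration was 4.39-fold (2.13 ± 0.67, adjusted p = 0.072) and did not pass. It did pass with median centring (2.51, adjusted p = 0.0248), with array weights (adjusted p = 0.00963), in a fit of the 2 luminal groups alone (adjusted p = 0.0046), without intact basal replicate 2 (adjusted p = 0.0116) or 3 (adjusted p = 0.0389), and as the mean of all 4 Tgfb2 probe sets (1.97, adjusted p = 0.00471). Without intact luminal replicate 3, the lowest of its group, the difference was 1.74 (adjusted p = 0.25). The other 3 probe sets read 1.63, 2.48 and 1.65 in this comparison, and 1 of them passed (adjusted p = 0.0153). Intact basal replicate 2 stood lowest of the 12 arrays for the chosen probe set.

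Tgfb3 encodes TGF-beta3. Its signal was 1109, 318 and 423 in intact luminal, 165, 295 and 193 in castrated luminal, 815, 668 and 638 in intact basal and 77.6, 265 and 2.61 in castrated basal cells. In each layer the castrated arrays all lay below the intact arrays. The gene fell 9.12-fold in basal cells after castration (-3.19, adjusted p = 0.0353), while the luminal difference of -1.27 ± 0.76 did not pass (adjusted p = 0.392). Without castrated basal replicate 3, where the signal was 2.61, the basal difference was -2.15 and no longer called (adjusted p = 0.0951). Leaving out castrated basal replicate 1, any intact basal replicate or any castrated luminal replicate also ended the call (adjusted p 0.0544 to 0.0865) with the direction kept. So did 1 added in place of 16 (adjusted p = 0.0663), a fit of the 2 basal groups alone (0.128), leaving out the model's intensity trend (0.0858) and array weights (0.0726). Most fibroblast markers were lower with it: 4 of 12 were called lower in basal cells and 8 of 12 in luminal cells after castration. Of all genes 2.62% and 5.86% were called there in either direction. In basal cells 10 of the 12 had a lower mean and 2 a higher one. Dcn, the brightest marker, was among the 2, at 22817, 20728 and 19696 in intact and 21299, 19296 and 25683 in castrated basal cells. The part of fibroblasts in the Tgfb3 result was not tested.

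Promoters are shown for Tgfb1 and Tgfb2, the ligand genes whose highest signals lay in different layers, and for Smad3, which was called after castration. The 250 bases before the start site are printed 5′ to 3′ on the gene's strand from RefSeq (GRCm38.p6). A window was kept for 6 of the 10 genes, which is not a count of those with a RefSeq entry. Smad2, Tgfb3 and Fst, also called after castration, were not among the 6, so their promoters were not examined. Capitals mark matches on either strand to GGGCGG (the GC box bound by SP1-type factors), CAGAC (a SMAD-binding element), TATAAA (the TATA box) or AGAACA (an androgen receptor half-site). None of these motifs lies within another. Of 32851 RefSeq windows of this length, 32.7% held the GC box, 42.2% the SMAD element, 12.4% the TATA box and 16.1% the androgen half-site.
Tgfb1: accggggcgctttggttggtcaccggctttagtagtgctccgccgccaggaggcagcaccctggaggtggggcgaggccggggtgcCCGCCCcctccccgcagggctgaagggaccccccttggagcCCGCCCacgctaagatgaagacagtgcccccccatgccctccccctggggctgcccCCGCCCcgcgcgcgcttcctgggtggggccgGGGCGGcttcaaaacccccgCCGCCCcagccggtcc
Tgfb2: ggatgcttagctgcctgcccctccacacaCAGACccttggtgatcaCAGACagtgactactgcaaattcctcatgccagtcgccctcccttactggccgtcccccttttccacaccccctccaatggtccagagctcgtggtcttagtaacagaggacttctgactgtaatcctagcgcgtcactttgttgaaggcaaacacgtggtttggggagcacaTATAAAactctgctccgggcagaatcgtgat
Smad3: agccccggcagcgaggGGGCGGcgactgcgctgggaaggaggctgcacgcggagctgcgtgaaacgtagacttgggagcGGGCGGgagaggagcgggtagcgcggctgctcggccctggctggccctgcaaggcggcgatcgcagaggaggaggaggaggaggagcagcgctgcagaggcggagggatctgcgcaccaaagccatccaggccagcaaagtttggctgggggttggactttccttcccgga
The Tgfb1 window (chr7:25686752-25687001, plus strand) is 75.2% G and C and holds 5 GC boxes. The Tgfb2 window (chr1:186705990-186706239, minus strand) is 53.6% G and C, with a TATA box 31 bases before the start and 2 SMAD elements. The Smad3 window (chr9:63757995-63758244, minus strand) is 69.2% G and C and holds 2 GC boxes. A match describes these letters and shows no binding.

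Tgfbr1 encodes the type I receptor kinase. Its signal was 1053, 1122 and 1400 in intact luminal, 1642, 1344 and 1865 in castrated luminal, 2559, 1823 and 2670 in intact basal and 2036, 2848 and 2724 in castrated basal cells. The intact luminal arrays all lay below the basal arrays, and the basal groups overlapped. It was 1.95-fold lower in luminal than in basal cells of intact mice (-0.96, adjusted p = 0.0264), a call lost without intact basal replicate 1 or 3 or intact luminal replicate 1 or 2 (adjusted p 0.0723 to 0.0823), in a fit of the 2 intact groups alone (0.0796) or without the intensity trend (0.0565). In castrated mice the difference of -0.64 did not pass (adjusted p = 0.14). The castration difference was 0.43 ± 0.29 in luminal cells (adjusted p = 0.448) and 0.11 in basal cells (adjusted p = 0.884).

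Tgfbr2 encodes the type II receptor, which binds the ligand first. Its signal was 1383, 1147 and 468 in intact luminal, 1823, 2809 and 2024 in castrated luminal, 1653, 2656 and 1165 in intact basal and 1857, 2376 and 1480 in castrated basal cells. The castrated luminal arrays all lay above the intact luminal arrays, a 2.38-fold difference (1.25 ± 0.41) that did not pass (adjusted p = 0.085). With the replicate number as a block in the fit, the same difference passed (1.25, adjusted p = 0.0425), as it did with median centring (1.63, adjusted p = 0.0213) and with array weights (adjusted p = 0.0451). Without intact luminal replicate 3, the lowest of all 12 arrays, it was 0.78 (adjusted p = 0.316). A second Tgfbr2 probe set read 0.07 there (adjusted p = 0.96), so the probe sets disagree, and another did not pass the filter.

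Tgfbr3 encodes betaglycan, the coreceptor that presents TGF-beta2 and also binds inhibin. Its signal was 1106, 2127 and 1654 in intact luminal, 2792, 2242 and 1571 in castrated luminal, 5096, 5038 and 8900 in intact basal and 7914, 7974 and 7245 in castrated basal cells. Every basal array lay above every luminal array. Luminal cells had 3.86-fold less in intact mice (-1.95, adjusted p = 0.000202) and 3.58-fold less in castrated mice (-1.84, adjusted p = 0.000344). Both calls held under all 28 alternatives tried, and the second Tgfbr3 probe set gave -1.94 (adjusted p = 0.000353) and -1.38 (adjusted p = 0.00586). The castration differences were 0.44 ± 0.30 in luminal cells (adjusted p = 0.457) and 0.33 in basal cells (adjusted p = 0.615).

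**Figure D2:**
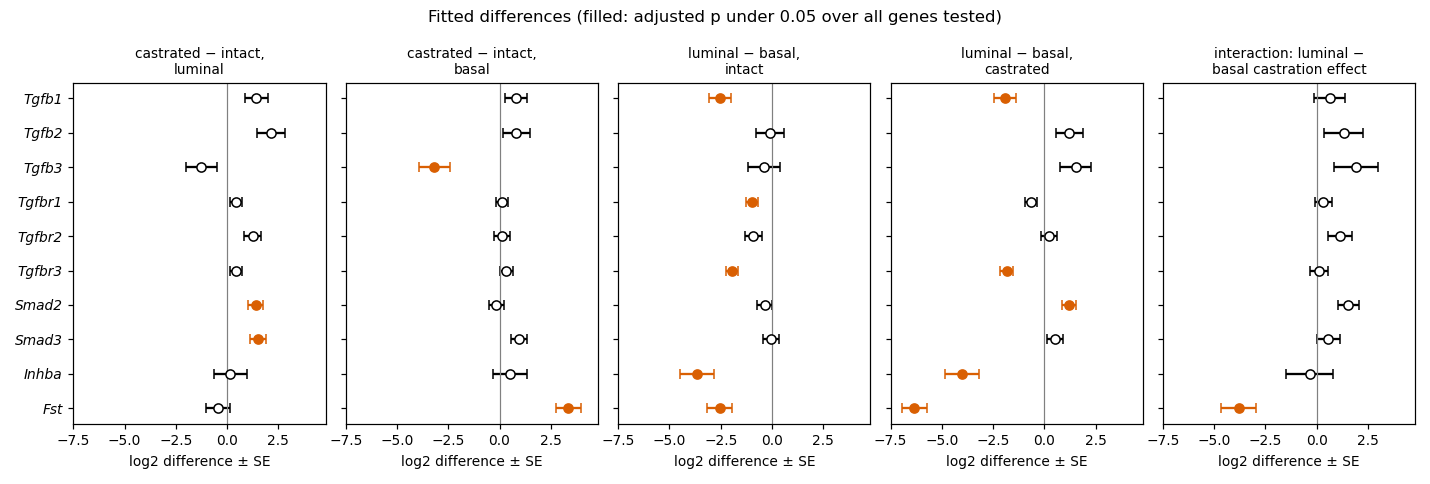
Log2 difference of each gene in each comparison, with bars of 1 SE and filled points at an adjusted p under 0.05. Tgfb1, Tgfbr3, Inhba and Fst are filled and below 0 in each comparison of the layers, and Fst after castration in basal cells lies at 3.35.

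Smad2 encodes one of the receptor-regulated SMADs that carry the signal to the nucleus. Its signal was 910 in replicate 1, 1472 in replicate 2 and 1362 in replicate 3 of intact luminal cells, and 3247, 2960 and 3494 in castrated luminal cells. It was 1382, 2345 and 1184 in intact basal and 1414, 2100 and 929 in castrated basal cells. The castrated luminal arrays lay above all others, and the other 3 groups overlapped. Smad2 rose 2.62-fold in luminal cells after castration (1.39 ± 0.35, adjusted p = 0.0259) and was 2.28-fold higher in luminal than in basal cells of castrated mice (1.19, adjusted p = 0.0253). In basal cells the castration difference was -0.16 (adjusted p = 0.866), and the difference between the layers' castration effects, 1.55 ± 0.50, did not pass (adjusted p = 0.176). The luminal call was lost without any 1 of the castrated luminal replicates or without intact luminal replicate 1 (adjusted p 0.0793 to 0.118). The layer call was lost without castrated basal replicate 1 or 3 or any castrated luminal replicate (adjusted p 0.0559 to 0.104). Both calls were also lost without the intensity trend in the model (adjusted p = 0.0771 and 0.0638). A second Smad2 probe set read 1.57 in luminal cells (adjusted p = 0.0875). Between the layers it read 0.95 in castrated mice (adjusted p = 0.246) and -1.38 in intact mice (adjusted p = 0.0738), and passed in neither. The chosen probe set read -0.35 between the intact layers.

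Smad3 encodes the other receptor-regulated SMAD of this branch, the one that binds DNA directly. Its signal was 1120, 686 and 891 in intact luminal, 1749, 2954 and 3106 in castrated luminal, 945, 638 and 1229 in intact basal and 1220, 2951 and 1468 in castrated basal cells. The luminal groups did not overlap, while castrated basal replicate 1 lay just below the highest intact basal array. Smad3 rose 2.83-fold in luminal cells (1.5 ± 0.39, adjusted p = 0.0301). The basal difference of 0.93 did not pass (adjusted p = 0.217), and the castration effects were not shown to differ between layers (0.57 ± 0.55, adjusted p = 0.732). The luminal call was lost without castrated luminal replicate 2 or 3 or intact luminal replicate 2 or 3 (adjusted p 0.069 to 0.156), without the intensity trend (adjusted p = 0.0785), and as the mean of the 3 Smad3 probe sets (1.00, adjusted p = 0.131). The other probe sets read 1.06 (adjusted p = 0.416) and 0.46 (adjusted p = 0.76). The groups of the 10 genes did not overlap for 6 of them in luminal cells, where 31.8% of all genes were so separated: Tgfb1, Tgfb2, Tgfbr2, Smad2 and Smad3 were higher after castration and Tgfb3 was lower. In basal cells 2 were separated (Fst higher, Tgfb3 lower), where 19.8% of all genes were.

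**Figure D3:**
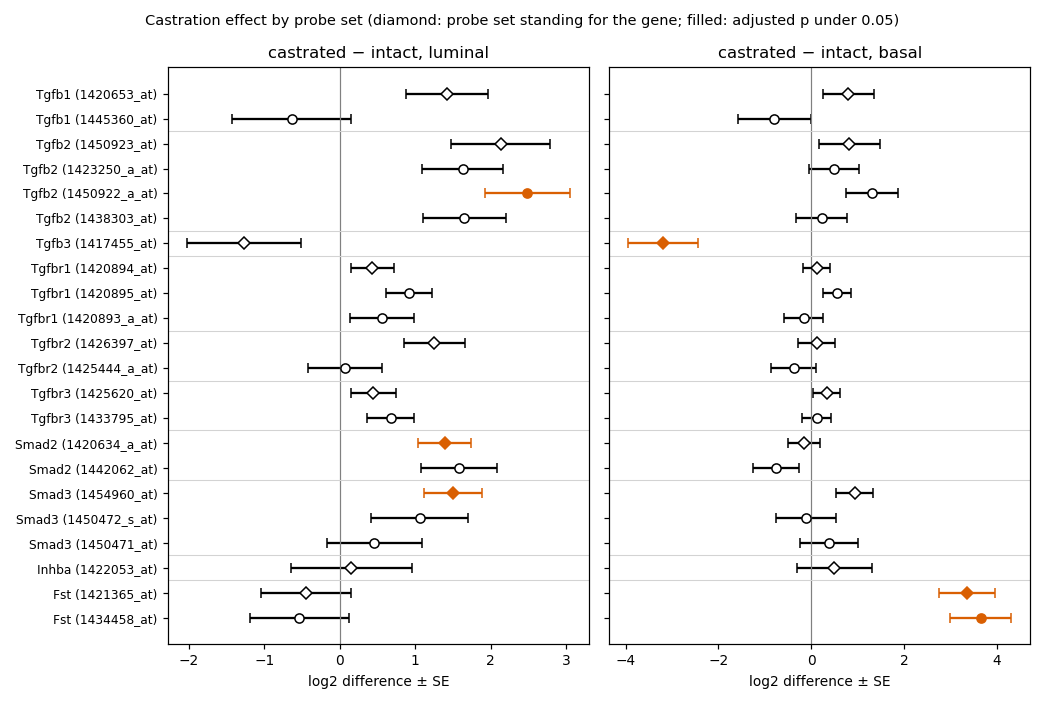
Log2 difference after castration (± SE), in luminal cells on the left and basal cells on the right, for each of the 22 probe sets of the 10 genes that passed the filter, with diamonds for the probe set that stood for the gene and filled markers at an adjusted p under 0.05 when every probe set was tested singly. In luminal cells all 4 Tgfb2 probe sets lie above 0, the Tgfb1 pair lies on opposite sides of 0, and both Fst probe sets are filled in basal cells.

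Inhba encodes the beta A subunit, whose dimer is activin A. Its signal was 495, 164 and 4.26 in intact luminal, 214, 104 and 76.5 in castrated luminal, 1107, 1896 and 1760 in intact basal and 1941, 3649 and 1479 in castrated basal cells. Every basal array lay above every luminal array, and within each layer the castrated and intact groups overlapped. It was 12.7-fold lower in luminal than in basal cells of intact mice (-3.67, adjusted p = 0.00422) and 16.1-fold lower in castrated mice (-4.01, adjusted p = 0.00217). The size in intact mice rests on intact luminal replicate 3, at a signal of 4.26. Without that array the difference was -2.37, still called (adjusted p = 0.0078). Leaving out replicate 2 of all groups ended both calls (adjusted p = 0.0598 and 0.0788). The castration difference was 0.50 in basal cells (adjusted p = 0.808). In luminal cells it was 0.15 ± 0.82 (adjusted p = 0.942) and turned to -1.15 without intact luminal replicate 3 (adjusted p = 0.342). The other Inhba probe set was at 1.03 to 34.7 on all arrays and was not tested.

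Fst encodes follistatin, the secreted protein that traps activin. Its signal was 38.8, 124 and 30.7 in intact luminal, 55.7, 62.3 and 9.22 in castrated luminal, 473, 594 and 226 in intact basal and 3311, 3831 and 6000 in castrated basal cells. The castrated basal arrays stood above all others, the intact basal arrays came next, and the luminal groups were lowest and overlapped. Fst rose 10.2-fold in basal cells after castration (3.35, adjusted p = 0.00842), a call lost without replicate 1 (adjusted p = 0.111) or 2 (0.0939) of all groups, and its luminal difference was -0.45 ± 0.61 (adjusted p = 0.748). The castration effect was smaller in luminal than in basal cells (-3.80 ± 0.86, adjusted p = 0.0411). That difference was no longer called under 17 of its 27 alternatives, among them 11 of the 12 fits that left out 1 array (adjusted p 0.0525 to 0.124), all except that without intact luminal replicate 3, and its size there was -4.09 to -3.28. It was also lost with quantile scaling (-3.39, adjusted p = 0.0686), with 1 added (0.0946) and without the intensity trend (0.0818). Fst was lower in luminal than in basal cells of intact mice (-2.55, adjusted p = 0.00652) and of castrated mice (-6.35, adjusted p = 1.58e-06). Luminal signals were dim, with 2 of 3 intact and 1 of 3 castrated arrays under the 40th percentile, so these sizes depend on the constant added. With 1 or 64 added in place of 16 they were -2.89 and -1.94 in intact mice and -7.00 and -5.38 in castrated mice, called each time. The second Fst probe set read 2939, 3880 and 2910 in castrated basal cells and 435, 254 and 124 in intact basal cells, and rose there too (3.65, adjusted p = 0.00854). It gave -4.19 for the difference between the layers' effects (adjusted p = 0.0454). Between the layers of castrated mice it read -5.96 (adjusted p = 7.36e-06). In intact mice it read -1.77 and did not pass (adjusted p = 0.0783), with intact luminal replicate 3 (210) above intact basal replicate 3 (124). The basal markers had a median difference of 0.31 after castration in basal cells, and the sum of the leukocyte markers was 1213 to 2628 in intact and 1935 to 3001 in castrated basal samples. Of 10 leukocyte markers tested, Lyz2 rose with Fst in basal cells (2.40, adjusted p = 0.0398), from 142, 132 and 39.3 to 502, 492 and 703. Tyrobp went from 144, 69.8 and 5.16 to 660, 617 and 170 there and did not pass (2.70, adjusted p = 0.0873). Cd68, the brightest of the list, went from 1483, 1168 and 499 to 395, 1078 and 361 (-0.81, adjusted p = 0.607). The part of leukocytes in the Fst result was not tested. Between the layers of castrated mice 7 of the 10 genes had groups that did not overlap, where 41.1% of all genes did, and in intact mice 5 of 10, all lower in luminal cells, where 32.0% did and 14.0% were lower.

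Beyond the 10 genes, 69 genes of the pathway stood in 4 lists, and 61 of them were tested. The latency list holds genes that store or release TGF-beta. Of its 9 measured genes, 4 rose and 1 fell in luminal cells after castration, with a median of 1.36 against -0.09 for all genes, and 1 rose in basal cells. Of all genes 5.86% were called in luminal and 2.62% in basal cells. Thbs1 encodes thrombospondin 1, which can release active TGF-beta from its latent complex. Its signal was 1698, 1844 and 1531 in intact luminal, 12766, 16292 and 14164 in castrated luminal, 9100, 10867 and 10581 in intact basal and 23893, 23086 and 32877 in castrated basal cells. The 4 groups did not overlap, and castration went with a higher level in each layer: 3.08 ± 0.19 in luminal cells (adjusted p = 3.24e-08) and 1.37 in basal cells (adjusted p = 0.000718). The rise was larger in luminal cells by 1.71 ± 0.26 (adjusted p = 0.0039). Without the intensity trend, this last call and the basal one were lost (adjusted p = 0.11 and 0.0506). Leaving out replicate 1 of all groups also ended both (adjusted p = 0.115 and 0.059), and leaving out replicate 2 ended the difference of effects (adjusted p = 0.175).

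Itgb6 and Itgav encode the subunits of integrin alpha v beta 6, which activates latent TGF-beta on epithelia. Itgb6 signal was 879, 649 and 119 in intact luminal, 3760, 3385 and 4513 in castrated luminal, 2306, 1411 and 1110 in intact basal and 1236, 1545 and 1218 in castrated basal cells. It rose in luminal cells (3.17 ± 0.52, adjusted p = 0.00141), where the groups did not overlap. Without intact luminal replicate 3, the lowest array, the rise was 2.33 (adjusted p = 0.000974). Itgav signal was 8164, 4797 and 4748 in intact luminal and 9861, 12156 and 15306 in castrated luminal cells, and it rose there by 1.10 ± 0.22 (adjusted p = 0.0059), a call lost without castrated luminal replicate 3 (adjusted p = 0.0519), without the intensity trend (0.0924) and as the mean of its probe sets (0.0577). The castration effect was larger in luminal than in basal cells for Itgb6 (3.38 ± 0.74, adjusted p = 0.035) and for Itgav (1.42 ± 0.31, adjusted p = 0.0362). Leaving out 1 array ended the Itgb6 call in 8 of 12 fits (adjusted p up to 0.119) and the Itgav call in 10 of 12 (up to 0.131). Both were also lost without the intensity trend (adjusted p = 0.121 and 0.251), Itgb6 with 1 added (0.0544), and Itgav with median centring (0.0861), array weights (0.0527) and mean probe sets (0.222). With the replicate number as a block the Itgav value had an adjusted p of 0.0618. Ltbp4, a binding protein that anchors latent TGF-beta in the matrix, had signals of 960.0, 285 and 668 in intact luminal, 85.7, 34.7 and 96.8 in castrated luminal, 7405, 7428 and 10525 in intact basal and 2920, 3414 and 3299 in castrated basal cells. Ltbp4 fell by 2.81 on the log2 scale in luminal cells (adjusted p = 0.000819). Beside it 8 of 12 fibroblast markers also fell there, where 5.86% of all genes were called in either direction. The part of fibroblasts in the Ltbp4 result was not tested. Between the layers, 6 of 9 latency genes were lower in luminal cells of intact mice, where 8.45% of all genes were, and 4 of 9 in castrated mice, where 7.22% were, Ltbp4 and Thbs1 among them. Furin, a protease that cleaves the TGF-beta precursor, was among them in both (-1.17, adjusted p = 0.00751, and -1.31, adjusted p = 0.00342). Ltbp1, another latent TGF-beta binding protein, was lower in castrated mice (-2.50, adjusted p = 0.00873), a call lost without castrated luminal replicate 2 (-1.85, adjusted p = 0.0648). In castrated mice the Thbs1 difference of -0.87 was lost with quantile scaling (-0.43, adjusted p = 0.0816) and without the trend (0.0653).

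The activin list covers other subunits, receptors and antagonists of activin. Of 11 measured genes, 1 rose and 1 fell in luminal cells after castration (5.86% of all genes were called there), with a median of -0.85 against -0.09 for all genes. Inhbb encodes the beta B subunit. Its signal was 135, 6.07 and 346 in intact luminal, 1280, 1446 and 1552 in castrated luminal, 14.2, 116 and 143 in intact basal and 88.6, 74 and 11.2 in castrated basal cells. It rose in luminal cells (3.75 ± 0.89, adjusted p = 0.0182) and was higher in luminal than in basal cells of castrated mice (4.50, adjusted p = 0.00177). Inhba and Inhbb thus had their highest arrays in different layers. The luminal call for Inhbb was lost without any castrated luminal replicate or without intact luminal replicate 2, and in the last case the difference was 2.62 (adjusted p 0.0617 to 0.0792). It was also lost with 1 added (adjusted p = 0.0572) and without the intensity trend (0.0517). The difference between the layers' castration effects was 4.19 ± 1.26 and did not pass (adjusted p = 0.143). Fstl3, an activin-binding relative of follistatin, was lower in luminal than in basal cells of intact mice (-3.67, adjusted p = 0.00239), with signals of 17.6, 137 and 20.3 against 711, 534 and 954. Unlike Fst, its basal values after castration were 698, 144 and 152, a difference of -1.45 that did not pass (adjusted p = 0.336). Fstl1, a secreted follistatin-like protein also made by fibroblasts, fell by 2.41 on the log2 scale in luminal cells (adjusted p = 0.0049), beside the fibroblast markers.

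Among 24 modifiers of SMAD signalling, 2 rose in luminal cells and 1 in basal cells after castration, shares near those of all genes called (5.86% and 2.62%). Pmepa1, a TGF-beta-induced protein that holds SMAD2 and SMAD3 back from the receptor, had signals of 1888, 1697 and 661 in intact luminal, 10212, 10336 and 11366 in castrated luminal, 8215, 8968 and 5464 in intact basal and 22718, 20010 and 28154 in castrated basal cells. The groups did not overlap within either layer. Pmepa1 rose by 3.03 ± 0.31 in luminal cells (adjusted p = 1.53e-05; 2.56 without intact luminal replicate 3) and by 1.66 in basal cells (adjusted p = 0.0108), and the difference of 1.37 ± 0.44 between these did not pass (adjusted p = 0.173). The basal call was lost without the intensity trend (adjusted p = 0.0835) and without replicate 1 (0.111) or 2 (0.095) of all groups. Tgif1, a corepressor of SMAD complexes, rose in luminal cells by 0.66 ± 0.18 (adjusted p = 0.0363), a call lost without any castrated luminal replicate or without intact luminal replicate 2 or 3 (adjusted p 0.0702 to 0.151) or without the intensity trend (0.244). Of the 24, 6 were lower in luminal than in basal cells in intact mice and 6 in castrated mice, while 3 and 2 were higher. Of all 14645 genes, 8.45% and 7.22% were called lower, and 1615 and 1643 genes were called higher. The modifiers called higher were thus near the share of all genes. Tgif2, a corepressor related to Tgif1, was lower in both (-3.58, adjusted p = 2.34e-06, and -4.21, adjusted p = 5.1e-07). Ski, a repressor of SMAD complexes, and Bambi, a decoy receptor, were lower in castrated mice (-1.84, adjusted p = 0.000268, and -2.05, adjusted p = 0.00693). Dab2, an adaptor protein linked to TGF-beta receptors, was among the higher ones (2.47, adjusted p = 0.00286, in intact mice).

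Of 20 measured target genes of TGF-beta, 1 rose and 3 fell in luminal cells and 1 fell in basal cells after castration, where 5.86% and 2.62% of all genes were called. The 3 that fell in luminal cells were the matrix genes Col1a1 (-3.90, adjusted p = 0.00442), Mmp2 (-3.10, adjusted p = 0.00747) and Col4a1 (-1.87, adjusted p = 0.0103). Col1a1 and Mmp2 were below the 40th percentile in all 3 castrated luminal samples, so their fitted sizes depend on the constant added. The Col4a1 call was lost without castrated luminal replicate 2 (adjusted p = 0.0616) and in a fit of the 2 luminal groups alone (0.0599). Matrix genes are expressed by fibroblasts, whose markers fell with them, and the part of those cells was not tested. The target that rose in luminal cells was Tgif1, which is also in the list of modifiers. Between the layers, 8 of 20 targets were lower in luminal cells of intact mice, where 8.45% of all genes were, and 11 of 20 in castrated mice, where 7.22% were. Snai2, which encodes a transcription factor of basal epithelium, had signals of 8120 to 9573 in intact and 12204 to 18646 in castrated basal cells. In luminal cells it was at 12.1 to 65.8 in intact and 31.5 to 51.0 in castrated mice, close to or under the 40th percentile, so the sizes (-7.38 and -7.93) depend on the constant added. Tgfb1i1, an adaptor protein of focal adhesions, was as dim in intact luminal cells (5.78 to 41.5, against 1427 to 3195 in basal cells) and was called lower in luminal cells of intact and of castrated mice. Col4a1 was also lower in luminal cells in each (-4.31 in intact and -5.71 in castrated mice). Cdkn1a, the cyclin-dependent kinase inhibitor p21, was lower too (-2.61 in intact mice).

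**Figure D4:**
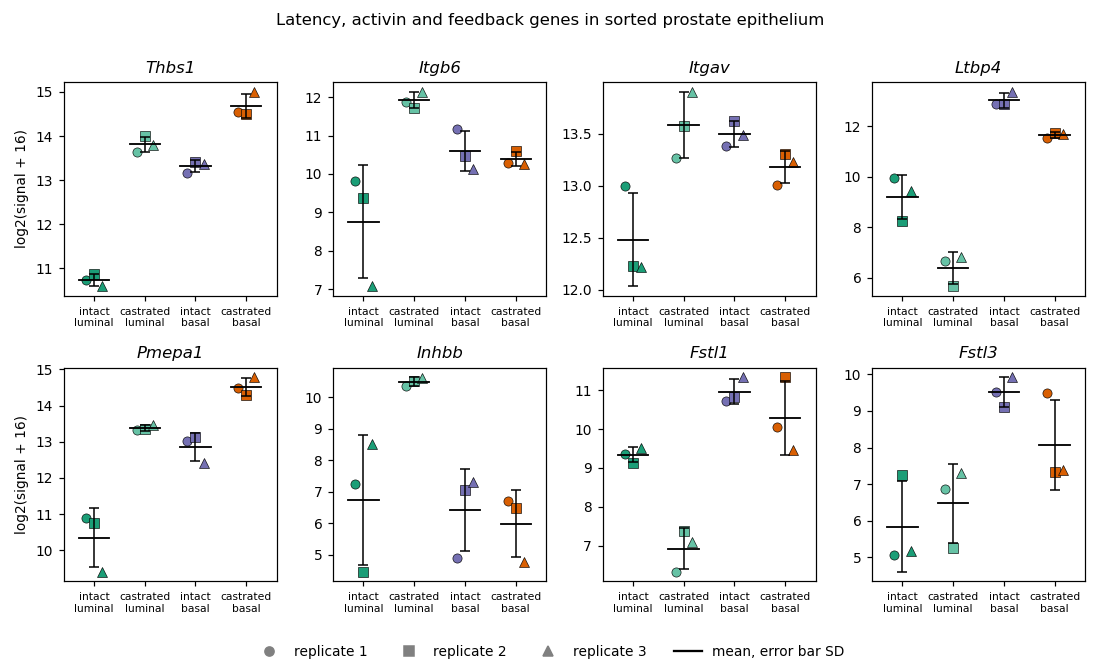
Signal of pathway genes outside the 10 on each of the 12 arrays as log2(signal + 16), with 1 point for each replicate, a line at the group mean and a bar of 1 SD. Thbs1 and Pmepa1 are higher after castration in each layer, and Inhbb has signals of 1280 to 1552 in castrated luminal cells, above its other 9 arrays.

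The genes whose pattern over the 12 arrays was most like each called gene are given by Pearson's r, as a description of arrays that share 4 groups. For Tgfb1 they were Clic4 (0.966), Cast (0.965) and Ndrg1 (0.955), and for Tgfb3 Ccna2 (0.936), Tmem126a (0.929) and Wdr11 (0.913). For Tgfbr1 they were Senp5 (0.947), Plek2 (0.946) and Itga6 (0.942), the last of which encodes CD49f, the antigen that defined the gates. Tgfbr3 went with Dll1 (0.966), Pdk4 (0.963) and Shh (0.963). Smad2 went with Cttnbp2nl (0.963), Plekha1 (0.953) and Ubd (0.91), and Smad3 less closely with Pgap6 (0.896), Npc1 (0.862) and Iqgap1 (0.859). Inhba went with Foxc1 (0.962), Tmem176a (0.957) and Slco4a1 (0.953), and Fst with Sde2 (0.965), Dlc1 (0.961) and Utp4 (0.959).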

How the data were processed

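Per the labels' protocols, the RNeasy Micro kit yielded the RNA, the NuGEN Pico kit amplified it, and the product was labelled with biotin. The deposited values are signal intensity on a linear scale, which the authors made with MAS5 according to the submitters' processing notes (the version is not given in the sources used here). The 3'/5' ratio of the Gapdh controls was 4.18 to 8.70 and that of the Actb controls 0.781 to 1.11. Of 45101 probe sets, 64 controls were left out, and a given annotation named 1 symbol for 34945, several for 932 and none here for 9160. A probe set was kept when 3 or more arrays had it above their own 40th percentile. Signals were taken as log2(signal + 16), with the brightest probe set by mean standing for a gene. The 4 group means were fitted with limma 3.58.1 in R 4.3.3 (lmFit, eBayes with an intensity trend, 8 residual degrees of freedom, Benjamini-Hochberg adjustment). On 10 simulated data sets of the luminal castration comparison, 200 genes were raised, with normal noise and otherwise the same mean in all groups. There the fit recovered 27.2% of 4-fold and 5.2% of 2-fold changes, and 5.26% of its calls were false. These shares hold for that setting. They do not give the power in these data, where 858 genes were called in both directions.

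The study design speaks of paired intact animals in 3 sets, so the replicate number was taken as a pairing and fitted as a block as an alternative. Same-numbered arrays deviated together no more than others (correlations -0.0072 to 0.026 over 18 pairs, against -0.033 to 0.035 over 36 pairs of unlike number). Genes were picked by rule: the 10 in every comparison, up to 4 called genes of lowest adjusted p per pathway list and comparison, and the 3 most alike genes by r. Not every value picked in this way is printed above. The 10 genes and the lists were chosen with earlier results of these data known. Lrrc32, Nrros, Inha, Inhbe, Mstn and Hmga2 of the lists were not tested, and Ctgf was listed also under its newer symbol Ccn2, which was. Other alternatives were quantile and median scaling, added constants of 1 and 64, other filters, array weights, a random block, mean probe sets and leaving out arrays. Plots used matplotlib 3.10.9, and tables numpy 2.4.6 and pandas 2.3.3, in Python 3.11.15.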

Additional observations from a re-analysis of the deposited data

Results flagged for a closer look

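The effect of castration differed between luminal and basal cells by the test of the difference itself for 1 of the 10 genes and 3 other genes of the pathway. For Fst the luminal effect was lower than the basal effect by a log2 difference of -3.80. For Thbs1 it was higher by 1.71, for Itgb6 by 3.38 and for Itgav by 1.42. The Thbs1 call is the one of these 4 that kept its adjusted p under 0.05 in every fit that left out 1 array, and it was lost without the intensity trend (adjusted p = 0.11) and without replicate 1 (adjusted p = 0.115) or 2 (0.175) of all groups.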

How the results depend on the processing

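Of 419 values of the 15 called differences of the 10 genes under alternatives, 342 kept direction and call, 77 kept the direction with the call lost, and none (0) reversed. The number of the 10 genes called in luminal cells after castration was 5 with median centring, 0 without the intensity trend and 5 with array weights. Of all 14645 genes 1273, 555 and 1945 were then called, against 858 in the main fit. With median centring 1021 of the 1273 were higher. In basal cells the number of the 10 was 1 with 1 added in place of 16, 1 in a 2-group fit, 1 without the trend and 1 with array weights. All-gene calls there were 294, 120, 155 and 202, against 384 in the main fit. For the difference between layers in the castration effect, 0 of the 10 were called with quantile scaling, 0 with 1 added and 0 without the trend. All-gene calls there were 156, 121 and 27, against 168 in the main fit. Leaving out 1 array or 1 set gave 0 to 3 of the 10 in luminal cells, 0 to 2 in basal cells, 2 to 5 between layers in intact mice, 3 to 6 in castrated mice and 0 to 1 for the difference of effects. In the same order, calls over all genes were 212 to 984, 22 to 623, 1283 to 3136, 1171 to 3109 and 0 to 163. Leaving out a whole set (1 replicate of all 4 groups) ended 12 of the 15 calls of the 10 genes. Any set ended Tgfb3 in basal cells, Smad2 and Smad3 in luminal cells and Fst in the difference of effects; set 1 or 2 Tgfbr1 between intact layers and Fst in basal cells; set 1 or 3 Tgfb1 and Smad2 between castrated layers; set 1 Tgfb1 and Fst between intact layers; and set 2 both layer calls of Inhba. Of the 45 called results picked by rule from the pathway lists, leaving out a set ended 23. They were Col1a1, Mmp2, Col4a1, Fstl1, Inhbb, Itgav and Tgif1 in luminal cells and Col1a1, Pmepa1 and Thbs1 in basal cells. Others were Fstl1, Fstl3, Furin, Itgav and Tgif1 between intact layers and Bambi, Dab2, Furin, Ltbp1 and Thbs1 between castrated layers. The rest were Itgav, Itgb6 and Thbs1 in the difference of effects. With the replicate block, the call changed for Tgfbr2 in luminal cells, Itgav in the difference of effects and Col1a1 in basal cells (adjusted p = 0.0574), and for no other of the 95 values compared. In basal cells Col1a1 fell by 3.03 on the log2 scale and also lost its call without any 1 of 8 arrays (adjusted p 0.0565 to 0.115). Median centring moved the median of all genes from -0.09 to 0.29 in luminal and from -0.11 to 0.23 in basal cells. The sign of uncalled differences turned for Smad2 in basal cells with median centring (0.19), for Inhba in luminal cells with 64 added (-0.13) and array weights (-0.50), for the Inhba difference of effects with 1 added (0.18), for Tgfb2 between intact layers with array weights (0.34) and mean probe sets (0.13), and for Tgfbr2 with mean probe sets in basal cells (-0.13) and between castrated layers (-0.12). Leaving out 1 array gave ranges through 0 for Fst in luminal cells (-0.75 to 0.078), Inhba in luminal cells (-1.15 to 1.18) and in the difference of effects (-1.64 to 0.68), Smad2 in basal cells (-0.44 to 0.14), Smad3 between intact layers (-0.29 to 0.18), Tgfb2 in basal cells (-0.17 to 1.55) and between intact layers (-1.08 to 0.64), Tgfbr1 in basal cells (-0.058 to 0.26), Tgfbr2 in basal cells (-0.16 to 0.43) and Tgfbr3 in the difference of effects (-0.16 to 0.33). Leaving out a set turned the sign of Inhba in luminal cells (-0.87) and in the difference of effects (0.24 to 0.46), Smad3 between intact layers (0.17), Tgfb2 between intact layers (0.057 to 1.03), Tgfbr1 in basal cells (-0.15) and in the difference of effects (-0.0012), and Tgfbr3 in the difference of effects (-0.18). The cause of these changes was not tested.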
